A study of Mus musculus with 9 samples.

Results

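The 10 genes described here encode the TGF-beta ligands Tgfb1, Tgfb2 and Tgfb3, the BMP ligand Bmp6, the latent TGF-beta binding protein Ltbp1, the signalling receptors Tgfbr1, Tgfbr2 and Acvrl1, and the co-receptors Tgfbr3 and Eng. They were taken from a list of symbols, and the Ensembl transcript with the most reads over all libraries stood for each gene. Levels are given as CPM, read counts scaled to the size of the library. All 10 were found among the 22092 genes to which the counted transcripts belong.

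TGF-beta and BMP ligands are secreted dimers that bring together type I and type II receptor kinases, which phosphorylate SMAD proteins that then enter the nucleus and regulate transcription. TGF-beta is secreted in a latent complex, bound to latent TGF-beta binding proteins in the matrix, and has to be activated. In brain vessels these pathways are known for their role in the assembly of endothelial cells, pericytes and smooth muscle cells, and mutations in the human ENG and ACVRL1 genes cause hereditary haemorrhagic telangiectasia.

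The study compared mRNAs engaged on ribosomes in the whole astrocyte and in its perivascular endfeet, the processes that sheathe brain vessels. Translating ribosome affinity purification (TRAP) recovers tagged ribosomes with the mRNAs attached to them, here by antibodies to GFP. All mice were 2 months old, of strain Aldh1L1 JD130 and genotype tg:Aldh1L1-L10aGFP, so both groups carried the transgene, in which the astrocyte promoter of Aldh1l1 drives the ribosomal protein L10a fused to eGFP. Whole astrocyte TRAP (n = 3) used 1 whole brain per library, cleared of choroid plexus, and endfeet TRAP (n = 6) used vessels purified from 8 mice pooled per library, with cycloheximide in the vessel purification buffers.

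The libraries held 35984144 to 43521208 gene counts in whole astrocyte TRAP and 2319495 to 13450588 in endfeet TRAP, and endfeet library 6 was the shallowest. A count of 3 corresponded to 0.0658 to 0.0811 CPM and 0.197 to 1.37 CPM respectively, after TMM normalization. Markers of other cells moved with the groups. All 12 endothelial markers tested were higher in endfeet TRAP, their summed level being 7.73 to 9.84 CPM in whole astrocyte and 3371 to 5190 CPM in endfeet libraries, and Ly6c1 was at 0 in every whole astrocyte library. All 12 mural cell markers were higher too (50.1 to 54.5 against 4187 to 8575 CPM), as were 7 of 8 fibroblast markers (30.9 to 50.1 against 564 to 1647 CPM), 7 of 10 microglia and macrophage markers (18.4 to 22.5 against 253 to 354 CPM) and 5 of 6 choroid plexus markers (70.6 to 1528 against 6701 to 89605 CPM). Of 8 astrocyte markers 1 was higher and 3 were lower in endfeet TRAP (15268 to 15641 against 3114 to 7590 CPM). Of 5 ependymal markers 3 were higher (25.9 to 35.5 against 46.1 to 232 CPM), of 6 neuronal markers 3 were lower (3341 to 3890 against 925 to 1878 CPM), and of 6 oligodendrocyte markers 1 was lower (621 to 634 against 209 to 554 CPM). All 5 mRNAs encoded in mitochondria were higher, at 25.0 to 49.7 CPM in sum in whole astrocyte and 3885 to 7693 CPM in endfeet libraries, with a median log2 fold change of 7.10. The part of these cells and of the mitochondrial mRNAs in the results below was not tested. In such bulk samples, fewer cells of a type and less RNA per cell cannot be told apart.

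All 10 genes were higher in endfeet TRAP by the quasi-likelihood test of edgeR (Benjamini-Hochberg adjustment, 14427 genes tested), and none was lower. Over all genes tested, 20.7% were higher and 13.9% were lower. The median log2 fold change was 4.57 over the 10 genes and 0.10 over all genes. Every endfeet library lay above every whole astrocyte library for 9 of the 10, Tgfb1 being the exception. Among all genes 18.9% were separated in that direction and 23.8% in the other. All 10 were also higher when endfeet TRAP was limited to libraries 4 to 6. A number in the deposited names puts these libraries in the same series as all whole astrocyte libraries. Endfeet libraries 1 to 3 belong to another series, and what the series stand for was not given.

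**Figure D1:**
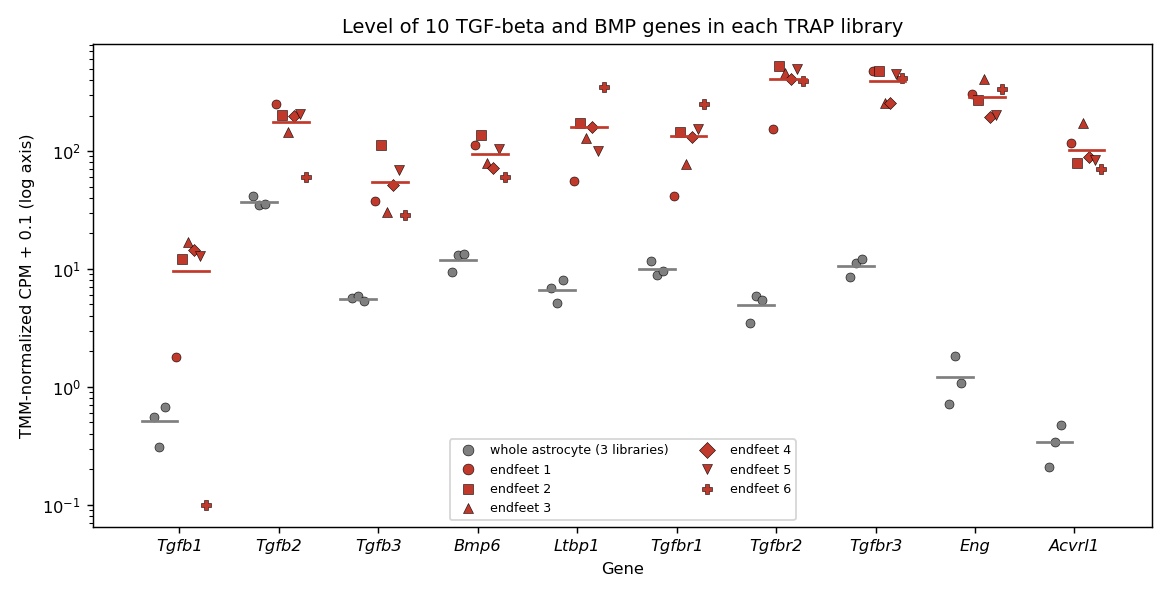
TMM-normalized CPM (plus 0.1, log axis) of the 10 genes in each library, with grey points for whole astrocyte TRAP (n = 3), red symbols for endfeet libraries 1 to 6 and lines at group means. The groups overlap for Tgfb1, which had no count in endfeet library 6.

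Tgfb2, which encodes a TGF-beta ligand, had the highest mean level per transcript length of the 4 ligands in both groups, although its range overlapped that of Bmp6 in endfeet TRAP. Its level was 41.2, 34.6 and 35.4 CPM in the whole astrocyte libraries, and 59.8 at the lowest, 201 at the median and 250 CPM at the highest in endfeet libraries. Endfeet library 6 was the lowest, and the groups did not overlap. The mean was 37.1 ± 3.59 (SD, n = 3) against 177 ± 66.5 CPM (SD, n = 6). The log2 fold change, 2.26 ± 0.42 (SE), had an adjusted p of 0.00105 (edgeR) and was the smallest of the 10. The gene lies at chr1:186622792-186705989 on the minus strand (mm10), and its counted exons share 124 bases with the antisense gene Gm29491. The authors' counting of strand was not given in the sources used here, so reads of such overlaps cannot be assigned to one gene. Bmp7, a ligand outside the 10 genes, had a higher mean per kilobase of transcript in whole astrocyte TRAP (7.87 against 7.24 CPM). The same held in endfeet TRAP (71.7 against 34.6 CPM). The Tgfb2 promoter, from 250 bases before to 50 bases after the start, is at chr1:186705940-186706239 (minus strand, RefSeq, build GRCm38.p6). It is shown as that of the highest of the 4 ligands per transcript length, with capitals for the SMAD box CAGAC.
Tgfb2: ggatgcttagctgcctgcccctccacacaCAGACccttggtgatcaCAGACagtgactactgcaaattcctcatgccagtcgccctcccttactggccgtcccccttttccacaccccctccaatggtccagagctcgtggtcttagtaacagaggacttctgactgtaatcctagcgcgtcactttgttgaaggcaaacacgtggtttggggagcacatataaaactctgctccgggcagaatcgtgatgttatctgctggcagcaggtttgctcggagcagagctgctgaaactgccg

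Tgfb3, the third of the TGF-beta ligands, was at 5.57, 5.74 and 5.22 CPM in whole astrocyte TRAP. In endfeet TRAP it ran from 28.3 CPM in library 6 through a median of 44.2 to 111 CPM in library 2, so all endfeet values were above all whole astrocyte values. The log2 fold change was 3.31 ± 0.57 (SE, adjusted p = 6.9e-04, edgeR; mean 5.51 ± 0.264 against 54.5 ± 31.7 CPM, SD). Tgfb3 is at chr12:86056745-86079041, minus strand, and overlaps 2 genes on the opposite strand, the larger overlap being 257 exonic bases.

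Tgfb1, the founding ligand of the family, had the lowest level per transcript length of the 4 ligands in both groups. It had 17, 8 and 26 counts in the whole astrocyte libraries, or 0.46, 0.21 and 0.57 CPM. In endfeet TRAP it ran from 0 counts in library 6, which at that depth allows up to 1.37 CPM, through a median of 12.4 to 16.8 CPM. Library 1, at 1.69 CPM, was also well below the 4 others, which lay between 12.1 and 16.8 CPM. The log2 fold change of 4.52 ± 1.36 (SE) had an adjusted p of 0.0211 by edgeR, but when any 1 of the whole astrocyte libraries was left out the adjusted p was 0.0754 to 0.102. The call was therefore lost whenever 1 of these 3 libraries was left out. Those settings also lowered the count of all genes called higher, from 2991 to between 1874 and 1959. Tgfb1 kept its call in the 15 other alternatives run for it. Its adjusted p was 4.5e-05 by the DESeq2 Wald test, 3.4e-04 by limma voom and 0.00228 by edgeR without endfeet library 6. Tgfb1 lies at chr7:25687002-25705077, plus strand, and its counted exons overlap no other gene.

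Bmp6, a BMP ligand, was at 9.38, 13.0 and 13.3 CPM in whole astrocyte TRAP and at 60.3 to 136 CPM (median 91.3) in endfeet TRAP. The groups were apart and the endfeet libraries were close to one another for this gene, with a mean of 11.9 ± 2.17 against 93.9 ± 28.3 CPM (SD). Its log2 fold change was 2.98 ± 0.40 (SE, adjusted p = 1.0e-04, edgeR). The gene is at chr13:38345107-38500302, plus strand, with 224 exonic bases shared with Txndc5 on the opposite strand.

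Divided by transcript length, to allow comparison between genes, the 3 Tgfb mRNAs were compared as shares of their sum. In whole astrocyte TRAP Tgfb2 made up 79.9 ± 1.21%, Tgfb3 18.05 ± 1.65% and Tgfb1 2.09 ± 0.933% (SD, n = 3). In endfeet TRAP the shares were 62.9 ± 9.85%, 29.6 ± 10.5% and 7.56 ± 6.38% (SD, n = 6). The log2 ratio of Tgfb2 to Tgfb3 was 2.15 ± 0.15 and 1.15 ± 0.71 (SD), lower in 5 of 6 endfeet libraries than in any whole astrocyte library. That difference of -0.998 did not pass the test (two-sided exact permutation p = 0.0595, adjusted over 4 ratios 0.0794), although it passed without endfeet library 1 (adjusted exact p = 0.0476). The ratio of Tgfb2 to Tgfb1 differed by -1.52 (exact permutation p = 0.202, adjusted 0.202). Neither p shows that the proportions were alike.

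**Figure D2:**
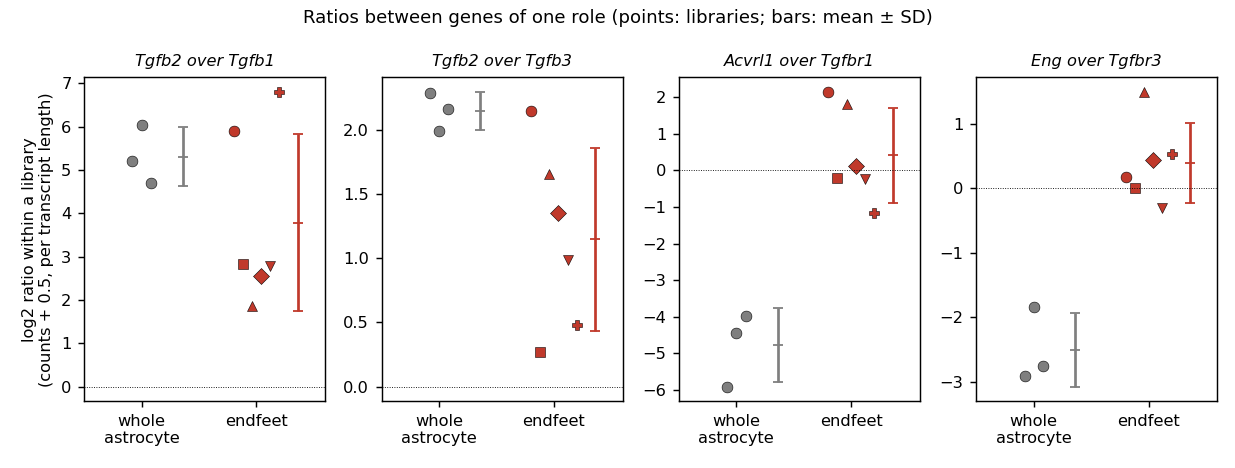
Log2 ratios within each library for 4 gene pairs, per transcript length, with 1 point per library (whole astrocyte n = 3, endfeet n = 6). The Acvrl1 to Tgfbr1 and Eng to Tgfbr3 ratios separate all libraries of both groups, and the Tgfb2 to Tgfb1 and Tgfb2 to Tgfb3 ratios do not.

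Ltbp1 encodes a latent TGF-beta binding protein, the matrix partner of the latent complex. It was at 6.73, 5.002 and 7.99 CPM in whole astrocyte TRAP. In endfeet TRAP it ran from 56.1 CPM in library 1 through a median of 144 to 348 CPM in library 6, a ratio of 6.20, the widest among the 9 genes detected in every endfeet library. The groups did not overlap, and the log2 fold change was 4.61 ± 0.59 (SE, adjusted p = 6.8e-05, edgeR). Ltbp1 is at chr17:75005568-75392512, plus strand.

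Of the receptors, Tgfbr1, the type I receptor of TGF-beta, was at 11.6, 8.71 and 9.52 CPM in whole astrocyte TRAP and 41.5 to 251 CPM (median 137) in endfeet TRAP. Endfeet libraries 1 and 6 held the ends of that range, and all 6 were above the whole astrocyte libraries. The log2 fold change was 3.74 ± 0.55 (SE, adjusted p = 1.9e-04, edgeR). The gene is at chr4:47353222-47414931, plus strand.

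Tgfbr2, the type II receptor that binds TGF-beta and recruits the type I receptor, was at 3.35, 5.74 and 5.31 CPM in whole astrocyte TRAP. In endfeet TRAP it was at 153 CPM in library 1 and between 389 and 527 CPM in the 5 others, so no values overlapped. Its log2 fold change was 6.399 ± 0.50 (SE, adjusted p = 1.1e-06, edgeR), from 4.80 ± 1.27 to 406 ± 134 CPM (SD). Tgfbr2 lies at chr9:116084293-116175360, minus strand.

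Acvrl1, also called ALK1, is a type I receptor of endothelial cells for BMP ligands. It had 4, 9 and 17 counts in the whole astrocyte libraries, or 0.11, 0.24 and 0.37 CPM, against 70.3 to 174 CPM (median 86.3) in endfeet TRAP. The groups did not overlap. The fitted fold change was 410, or 8.68 ± 0.64 on the log2 scale (SE, adjusted p = 7.4e-07, edgeR), the largest of the 10. The gene is at chr15:101128522-101145336, plus strand.

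Tgfbr3, or betaglycan, is a co-receptor that presents TGF-beta, Tgfb2 in particular, to the signalling receptors. It was at 8.51, 11.1 and 11.98 CPM in whole astrocyte TRAP and at 257 to 480 CPM (median 432) in endfeet TRAP, with a highest to lowest ratio among the endfeet libraries of 1.86, the least of the 10 genes. Its log2 fold change was 5.21 ± 0.38 (SE, adjusted p = 6.7e-07, edgeR). It lies at chr5:107106570-107289629, minus strand, and shares 297 exonic bases with Gm43422 on the same strand.

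Eng encodes endoglin, a co-receptor of endothelial cells. It was at 0.62, 1.72 and 0.99 CPM in whole astrocyte TRAP and at 195 to 406 CPM (median 286) in endfeet TRAP. The groups did not overlap, and the fitted fold change was 255, or 7.996 ± 0.52 on the log2 scale (SE, adjusted p = 2.7e-07, edgeR). Eng is at chr2:32646595-32682669, plus strand, with 61 exonic bases shared with Fpgs on the opposite strand. The same promoter window is shown for Eng (chr2:32646345-32646644, plus strand) and Tgfbr2 (chr9:116175314-116175613, minus strand), receptors with large fold changes, with the SMAD box in capitals on either strand (its reverse reads GTCTG).
Eng: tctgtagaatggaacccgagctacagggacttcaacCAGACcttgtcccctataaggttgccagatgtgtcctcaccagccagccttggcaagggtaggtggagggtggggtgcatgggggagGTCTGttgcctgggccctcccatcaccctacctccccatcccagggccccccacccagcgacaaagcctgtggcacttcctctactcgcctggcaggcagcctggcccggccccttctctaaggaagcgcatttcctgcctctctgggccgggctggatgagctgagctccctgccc
Tgfbr2: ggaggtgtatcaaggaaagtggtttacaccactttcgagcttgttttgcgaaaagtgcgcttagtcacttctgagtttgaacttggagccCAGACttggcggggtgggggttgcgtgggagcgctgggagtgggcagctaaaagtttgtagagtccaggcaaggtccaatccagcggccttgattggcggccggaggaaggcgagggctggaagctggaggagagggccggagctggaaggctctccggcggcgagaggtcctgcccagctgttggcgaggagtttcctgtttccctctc

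**Figure D3:**
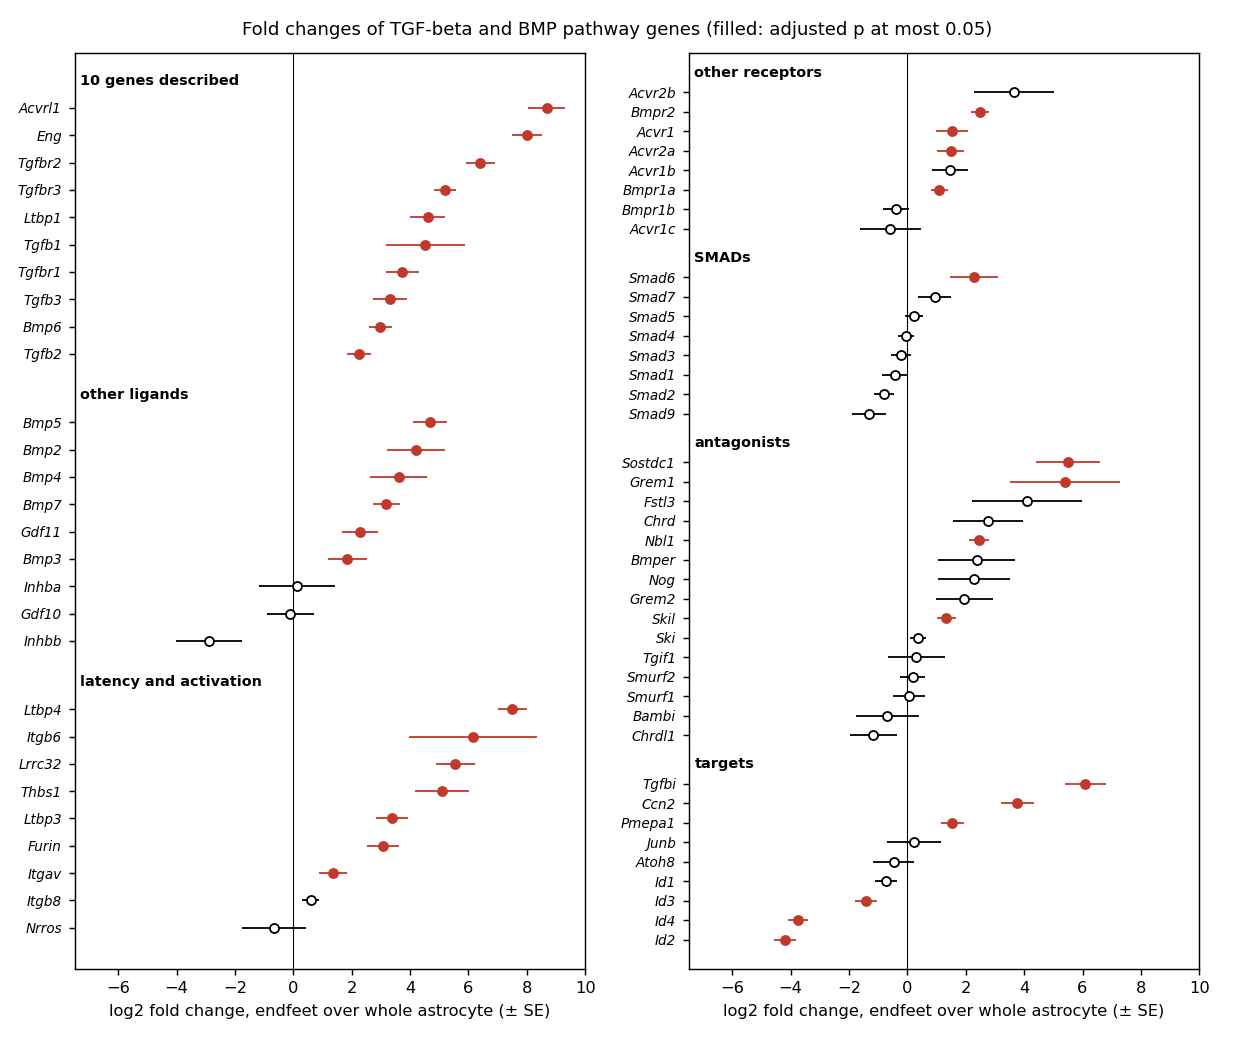
Log2 fold change (endfeet minus whole astrocyte TRAP, edgeR, with SE bars) of the 10 genes and of the other pathway genes tested. The 10 genes lie between 2.26 (Tgfb2) and 8.68 (Acvrl1), and of the other pathway genes Id2 and Id4 lie lowest, at -4.21 and -3.75.

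Within the receptors, the balance differed between the groups. The log2 ratio of Acvrl1 to Tgfbr1, per transcript length, was -4.78 ± 1.01 in whole astrocyte and 0.41 ± 1.30 in endfeet TRAP (SD), higher in 6 of 6 endfeet libraries. The difference was 5.19 (two-sided exact permutation p = 0.0119, adjusted 0.0238). The ratio of Eng to Tgfbr3 rose from -2.50 ± 0.57 to 0.39 ± 0.62, a difference of 2.89, also in 6 of 6 (exact permutation p = 0.0119, adjusted 0.0238). An exact p of 0.0119 is the smallest that 84 splits allow. Without any 1 whole astrocyte library the adjusted exact p was 0.0714 for both ratios, where p cannot go below 0.0357.

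The levels per kilobase of transcript (RPKM) were ordered in each group. In whole astrocyte TRAP it ran Tgfb2 (7.24 RPKM), Bmp6 (3.31), Tgfbr3 (1.73), Tgfbr1 (1.73), Tgfb3 (1.63), Ltbp1 (0.985), Tgfbr2 (0.593), Eng (0.326), Tgfb1 (0.190) and Acvrl1 (0.0659). The ranges of neighbours overlapped between Tgfbr3, Tgfbr1 and Tgfb3 and from Tgfbr2 to Acvrl1. Within libraries, Tgfbr2 was above Eng and Tgfb1 above Acvrl1 in 3 of 3, and the other overlapping neighbours kept this order in 2 of 3. In endfeet TRAP it ran Eng (83.7 RPKM), Tgfbr3 (64.0), Tgfbr2 (50.1), Tgfb2 (34.6), Acvrl1 (28.0), Bmp6 (26.1), Ltbp1 (24.1), Tgfbr1 (23.1), Tgfb3 (16.1) and Tgfb1 (4.41). Among these neighbours only Tgfb3 and Tgfb1 had ranges without overlap, and the others kept this order in 4 or 5 of the 6 libraries.

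Set against the summed counts of the 12 endothelial markers, Eng and Acvrl1, the genes with the largest fold changes, stood apart from the other 8 genes. Eng counts were 8.04 to 17.5% of that sum in whole astrocyte and 4.39 to 8.999% in endfeet libraries, and Acvrl1 counts were 1.40 to 4.46% and 1.72 to 3.46%, so both pairs of ranges overlapped. For Tgfb2 the shares were 351 to 533% and 1.46 to 7.42%, for Bmp6 121 to 159% and 1.48 to 3.33%, for Tgfbr3 110 to 143% and 4.97 to 14.2%, and for Tgfbr2 43.4 to 63.5% and 4.54 to 12.3%. For the 8 other genes every whole astrocyte library had the higher share. The whole astrocyte sums were 286 to 381 counts, and the overlap for Eng came from whole astrocyte library 1, with 23 Eng counts. Such shares restate the fold change of each gene against that of the marker sum, so they are a description.

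The spread among endfeet libraries was not shared by all genes. Endfeet library 6 was the lowest for 5 of the 10 genes and the highest for 2 (Ltbp1 and Tgfbr1), and library 1 was the lowest for 3 and the highest for 2.

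**Figure D4:**
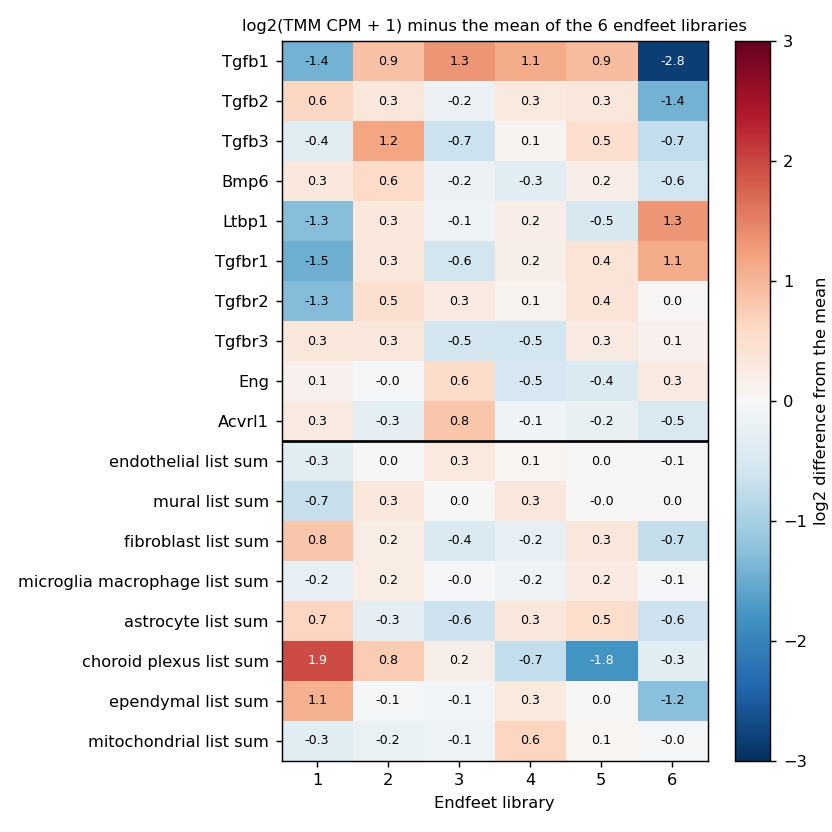
Deviation of each of the 6 endfeet libraries from the endfeet mean for the 10 genes, on the log2(CPM + 1) scale, with the summed marker lists below the line. Tgfb1 is far below its mean in libraries 1 and 6, and Ltbp1 and Tgfbr1 are below it in library 1 and above it in library 6.

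Over all 9 libraries the most alike pairs among the 10 were Tgfb3 and Bmp6 (root mean square distance 0.41 between centred log2(CPM + 1) profiles), Eng and Acvrl1 (0.50) and Ltbp1 and Tgfbr1 (0.53). Of all genes tested, the closest to Eng was Cdh5 (0.28), an endothelial cadherin, followed by Myh11 (0.41), a smooth muscle myosin, and Atp10a. Tgfb3 was closest to Csf1r (0.24), Syn3 and Hells, and Tgfb1 to Tmem200b (0.37), AI467606 and Fcer1g. Tgfbr2 was closest to Atp2a3 (0.25), Gbp4 and Bmx, Acvrl1 to Pltp (0.32), Lsr and Ets1, Bmp6 to Sntb2 (0.17), Nhsl2 and Prelp, and Tgfb2 to Atp13a1 (0.20), Rtraf and Abca2. Ltbp1 was closest to Ecm1 (0.23), Pkd1 and Rad54b, Tgfbr1 to Gpr160 (0.25), Prrg4 and Zbtb34, and Tgfbr3 to Myof (0.27), Hspa12b and Lamc3. The points share their libraries and the group difference, so these distances are a description.

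Of 63 other genes of the pathway, 58 were tested, 25 were higher and 3 lower in endfeet TRAP, and 30 did not pass (edgeR, 20.7% and 13.9% over all genes). Without whole astrocyte library 2, 14 were higher, and without endfeet library 4 or 5, 5 were lower. With endfeet TRAP limited to libraries 4 to 6, 56 were tested, 19 were higher and 4 lower. Bmp4, Acvr1, Smad6 and Pmepa1 were among those that lost their calls there, and Itgb6 and Grem1 were not tested. With the library series as a covariate, 21 were higher. Among other ligands, 6 of 9 were higher, and for these 6 all endfeet values were above all whole astrocyte values, as for 18.9% of all genes tested. Bmp5 (log2 fold change 4.68 ± 0.58, SE, from 2.56 ± 0.995 CPM) and Bmp7 (3.19 ± 0.46, from 28.9 ± 6.01 CPM) are BMP ligands of the same subgroup as Bmp6. Bmp2 and Bmp4 had log2 fold changes of 4.21 and 3.61, and Bmp4 lost its call without whole astrocyte library 1 or 2 (adjusted p = 0.0589 and 0.0512, edgeR). Bmp3, with an adjusted p of 0.0493 (edgeR), lost its call without any 1 whole astrocyte library or without endfeet library 2, 4 or 5. Gdf11 lost its call without whole astrocyte library 2. Gdf2, the ligand of Acvrl1 known as BMP9, had no count in any of the 9 libraries, and Mstn had none in endfeet TRAP.

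Among genes of latency and activation, 7 of 9 tested were higher, where 20.7% of all genes tested were. Of the 7, Itgav had overlapping groups and an adjusted p of 0.0474 (edgeR). Its call was lost without any 1 whole astrocyte library, without endfeet library 1, 4 or 5 and with endfeet libraries 4 to 6 only. Ltbp4, a further latent TGF-beta binding protein, had a log2 fold change of 7.51 ± 0.49 (SE), from 1.09 ± 0.521 CPM to 132 to 238 CPM. Lrrc32, which holds latent TGF-beta at the cell surface, was at 5.54 ± 0.66, Thbs1, the activator thrombospondin, at 5.09 ± 0.93, and Itgb6 at 6.15, though Itgb6 had no count in 2 endfeet libraries and lost its call without any whole astrocyte library (adjusted p 0.0654 to 0.165, edgeR). Itgb8, the astrocyte integrin subunit that activates latent TGF-beta, was at 138 to 148 CPM in whole astrocyte and 125 to 305 CPM in endfeet TRAP, and its log2 difference of 0.59 did not pass (adjusted p = 0.129, edgeR).

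Of the 8 other receptors, 4 were higher, namely Bmpr2 (log2 fold change 2.50 ± 0.30, SE), Acvr1 (1.52), Acvr2a (1.49) and Bmpr1a (1.09 ± 0.28), and 4 did not pass. The share over all genes tested was 20.7%. Bmpr2, the type II receptor that pairs with Acvrl1, was at 74.2 to 106 CPM in whole astrocyte TRAP and 354 to 749 CPM in endfeet TRAP, with no overlap. Acvr1 and Acvr2a lost their calls without any 1 of the whole astrocyte libraries, Acvr1 also without endfeet library 2, 3 or 4 and Acvr2a without endfeet library 5 (adjusted p 0.0537 to 0.170 and 0.0637 to 0.0991, edgeR). Bmpr1a lost its call without whole astrocyte library 2 or 3 (adjusted p = 0.0541 and 0.0632, edgeR).

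Among SMADs, only the inhibitory Smad6 passed (2.27 ± 0.82, SE, adjusted p = 0.0462, edgeR), and 7 of 8 did not. Its call was lost without any whole astrocyte library or without endfeet library 2, 3 or 5 (adjusted p 0.0529 to 0.161, edgeR). Smad2, which carries the TGF-beta signal, had a log2 difference of -0.80 (adjusted p = 0.0792, edgeR), and Smad9 one of -1.32 (adjusted p = 0.0928, edgeR). For these 2 of the 8 SMADs every endfeet library was below every whole astrocyte library, as it was for 23.8% of all genes tested. Smad2 passed without endfeet library 4 or 5 (adjusted p = 0.0384 and 0.0315, edgeR) and Smad9 without endfeet library 5 (0.0344). The median log2 fold change of the SMADs was -0.14.

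Of 15 antagonists and regulators tested, 4 were higher, against 20.7% of all genes tested. The 4 were Sostdc1 (5.50 ± 1.09, SE), Grem1 (5.40 ± 1.89), Nbl1 (2.44 ± 0.35) and Skil (1.33 ± 0.32). Sostdc1 was at 49.6 to 565 CPM in endfeet TRAP, and the choroid plexus markers also spread widely there (6701 to 89605 CPM in sum), their part in this result not being tested. Grem1 had 0 to 199 counts in endfeet libraries, and it lost its call without any whole astrocyte library or without endfeet library 1, 2 or 5 (adjusted p 0.0503 to 0.145, edgeR).

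Of the 9 targets tested, 3 rose, 3 fell and 3 did not pass, where 20.7% of all genes tested rose and 13.9% fell. Tgfbi, a TGF-beta-induced matrix protein, rose by 6.09 ± 0.70, Ccn2 by 3.77 ± 0.58 and Pmepa1 by 1.54 ± 0.40 on the log2 scale (SE). Pmepa1 lost its call without whole astrocyte library 2 (adjusted p = 0.0522, edgeR). The 3 that fell encode Id proteins, helix-loop-helix inhibitors that BMP signalling is known to induce. Id2 was at 1480, 1320 and 1281 CPM in whole astrocyte TRAP and between 34.7 and 144 CPM in endfeet TRAP, or -4.21 ± 0.38 on the log2 scale (SE, adjusted p = 3.4e-06, edgeR). Id4 was at 728, 665 and 511 CPM against 21.6 to 82.5 CPM (-3.75 ± 0.35), and Id3 at 282, 322 and 331 CPM against 44.8 to 186 CPM (-1.42 ± 0.37). For all 3, every endfeet library was below every whole astrocyte library, as it was for 23.8% of all genes tested. Of the 8 astrocyte markers, the 3 that were lower had log2 fold changes of -3.997 (Aldoc), -3.27 (Sox9) and -2.38 (Aldh1l1) by edgeR. Aqp4 was higher, at 1.67, and the 4 remaining markers did not pass. Whether the fall of the Id mRNAs was separate from that of such astrocyte mRNAs was not tested. Id1 was not called (log2 difference -0.74, adjusted p = 0.150, edgeR) but passed without endfeet library 3 (adjusted p = 0.0359). The promoter of Id2, the target with the largest fall, is at chr12:25096043-25096342 (minus strand, RefSeq, GRCm38.p6). Capitals mark a GC-rich SMAD element, a core of ETS factor sites and a GC box, in that order.
Id2: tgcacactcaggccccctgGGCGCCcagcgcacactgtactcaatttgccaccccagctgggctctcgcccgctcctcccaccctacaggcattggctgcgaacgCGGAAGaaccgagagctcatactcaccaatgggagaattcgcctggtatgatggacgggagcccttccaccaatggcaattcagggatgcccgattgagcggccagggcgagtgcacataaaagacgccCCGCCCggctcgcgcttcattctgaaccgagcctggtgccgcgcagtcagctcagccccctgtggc

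Of the 10 genes, 7 had a promoter in the RefSeq table used, with 9 start sites in all. The SMAD box (CAGAC on either strand) was in 6 of these 7 genes and in 7 of the 9 promoters, and in 49.6% of 32851 promoters of the same length. The GC box (GGGCGG on either strand) was in 3 of the 9 and in 35.7% of all. The GC-rich SMAD element (GGCGCC) was in 1 of the 9 and in 11.9% of all. The ETS core (CGGAAG on either strand) was in 0 of the 9 and in 16.9% of all. These motifs do not overlap in the promoters shown, and a match is a description of the letters only.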

How the data were processed

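Polysomal RNA of 9 TRAP libraries was amplified (Ovation RNA-Seq, NuGEN) and sequenced as 50-base reads. Per the labels and the study's methods, the authors filtered the reads in the Eoulsan pipeline, aligned them with Bowtie to mm10 (Ensembl 75), discarded multi-mapping reads and made the deposited counts with HTSeq-count 0.5.3 (bcl2fastq 1.8.4). The deposited counts are raw and per transcript.

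Of 75466 transcripts, 73164 were matched to GENCODE M21 (same build), in 22092 genes, and 2302 were not. For each gene the transcript with most CPM was used, because transcripts of one gene repeat the same reads. The groups were compared with edgeR 4.0.16 in R 4.3.3 (TMM, filterByExpr, glmQLFTest, threshold 0.05). The SE was derived from the log2 fold change and the square root of F. The 4 ratios used exact permutation over libraries, with 0.5 counts added. P-values measure the spread between libraries, and the floor of 3 counts covers counting error only. The 10 genes and all lists were chosen with earlier results of these data known. In each other pathway list, the named genes are the called ones with the largest fold changes and those with no count in a group. Ltbp1 transcripts, Itgb8, Itgav, Bmp3, Gdf11, Smad2, Smad9 and Id1 were chosen after their values were seen. 1 gene of the target list is not reported here. The fit was tested on simulated data. Alternatives were DESeq2 1.42.0, limma voom 3.58.1, other scalings and filters, library series, replicate number as a block and each library left out. The common dispersion was 0.0142 in whole astrocyte and 0.725 in endfeet TRAP. The edgeR test fitted 1 dispersion per gene for both groups together, so its p-values rest on a spread pooled over unlike groups. The limma voom fit used weights that differ by group. Tables were handled in Python 3.11.15.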

Additional observations from a re-analysis of the deposited data

Results flagged for a closer look

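The TMM-normalized level of Tgfbr2 in endfeet library 1, 153 CPM, was far from those of the 5 other endfeet libraries, which lay between 389 and 527 CPM. The gap was 0.632 of the whole range, above Dixon's critical value for 6 samples at 95%. Of 14 values checked this was the only one, and chance alone gives about 1 in 20.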

How the results depend on the processing

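No result was reversed under any alternative run for it (19 for the counts and for 8 of the 10 genes, 18 for Tgfb1 and Acvrl1, 14 for the ratios), and between 8 and 10 of the 10 genes were called higher and 0 lower. Tgfb1 and Acvrl1 did not pass the filter of 10 counts in every library. Tgfb1 lost its call without any whole astrocyte library (log2 fold change 4.20 to 4.81, adjusted p 0.0754 to 0.102). Of the other pathway genes 14 to 28 were higher when 1 library was left out, 14 without whole astrocyte library 2. The count of lower genes, 3, was 8 with limma voom, 5 with at least 10 counts in every library and 3 to 5 with a library left out (5 without endfeet library 4 or 5). Over all genes, 4485 were lower with limma voom, against 2006. Without 1 whole astrocyte library, 1874 to 1959 genes were higher, against 2991, and 1171 to 1217 lower. With endfeet libraries 2 to 5 only, an alternative chosen after seeing the data, 3369 were lower. Series B held all whole astrocyte and endfeet libraries 4 to 6, by the number in the deposited names. In series B only, where p cannot go below 0.1, the Acvrl1 to Tgfbr1 difference was 4.35 and the Eng to Tgfbr3 difference 2.72 (exact permutation, adjusted p = 0.133 each). With 1 library left out these were 4.63 to 5.60 and 2.67 to 3.22, with adjusted p = 0.0714 without any whole astrocyte library, where p cannot go below 0.0357. The Tgfb2 to Tgfb3 difference was -1.20 to -0.82 and passed without endfeet library 1 (adjusted p = 0.0476, exact permutation). The Tgfb2 to Tgfb1 difference was -2.13 to -1.14, and -2.81 with endfeet libraries 2 to 5 only (adjusted p = 0.0381, exact permutation). Whether the replicate numbers pair the libraries was not settled. The 3 same-number pairs correlated at -0.03, 0.01 and 0.07, and 1 of 3 whole astrocyte libraries correlated best with its own number. The whole astrocyte libraries differed little (common dispersion 0.0142), so these correlations cannot exclude a pairing. With the replicate block, 5 other pathway genes were lower, and the ratio differences were 6.04 and 3.06 (adjusted p = 0.333 each, p not below 0.25).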

Other observations

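Ltbp1 has a long transcript and a shorter one that starts further downstream, and most of their reads are shared. The counts of the long transcript above those of the short one, as a percentage of the long, were 7.69 to 12.9% in whole astrocyte TRAP and 0.334 to 7.42% in endfeet TRAP, so the ranges did not overlap. In numbers these were 19 to 32 counts and 1 to 145 counts. This pair was chosen after the values were seen and was not tested.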
